A study of Sus scrofa with 10 samples.

Results

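The CYP3A family of pig liver was measured here by 5 probe sets, which the array annotation assigned to 4 genes, *CYP3A22*, *CYP3A29*, *CYP3A39* and *CYP3A46*. They were taken from 23935 porcine probe sets, of which 10069 carried 1 gene symbol, by matching the symbol alone. *CYP3A39* had 2 probe sets built on 1 target, and each of the other genes had 1. No probe set was annotated with more than 1 of these symbols. The family was chosen by its measured values, because *CYP3A22* was very low in a single animal, so values that show this loss are given as a description, and nothing is supported with them. The arrays hold 5 H animals and 5 L animals, all female Iberian x Landrace backcross pigs raised and fed under the same conditions, with 1 Affymetrix GeneChip Porcine array of liver total RNA for each animal. H animals had the high and L animals the low scores of a principal component of intramuscular fatty acid composition, with more polyunsaturated fatty acids in the muscle of H and more saturated and monounsaturated ones in L. The labels name no treatment. Sibs were placed in opposite groups, but the labels do not say which animals are related.

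Cytochromes P450 of the CYP3A subfamily are haem enzymes of the endoplasmic reticulum that oxidise drugs, steroid hormones and bile acids, and in humans they carry out a large share of drug oxidation in the liver. They receive electrons from NADPH-cytochrome P450 reductase (*POR*), with cytochrome b5 as a helper. In mammals, transcription of CYP3A genes is switched on by the pregnane X receptor (*NR1I2*) and the constitutive androstane receptor when these bind foreign chemicals or bile acids. The genes lie side by side in the genome and their sequences are much alike, so that short array probes can pick up more than 1 of them. In the gene table used for names, *CYP3A22*, *CYP3A46* and *CYP3A29* followed each other in this order.

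The naming of 2 members was not settled. The gene ID given for *CYP3A39* was not matched in the name table, which lists *CYP3A39* as a synonym of *CYP3A46*, although the array carries separate probe sets for both. Of the 2 *CYP3A39* probe sets, the one whose name ends in _s_at is a type that may share probes between transcripts, and it is kept apart below from the _at set. Probe sequences were not analysed here, so how much of each signal comes from a related gene was not tested. Values of different probe sets are therefore compared only as changes between animals and not as levels.

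The data gave a log2 value for each probe set on each array. Array medians lay between 3.78 and 3.85. Every array bottomed out at 2.19, and the brightest probe set of an array reached 15.86 to 15.997. The median correlation of an array with the other 9 was between 0.969, for H4, and 0.979. All 10 hepatocyte markers examined were bright, with mean levels per animal of 14.60 to 14.89 in H and 14.64 to 14.88 in L. Markers of skeletal muscle (3 on the array) and of T and B cells (4) reached a mean of 4 in no probe set. In whole liver tissue, fewer cells of a type and less RNA per cell cannot be told apart.

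*CYP3A22*, the member with the widest spread, measured 11.45, 9.81, 11.02, 9.27 and 10.03 in animals H1 to H5, against 9.64, 10.96, 4.42, 8.96 and 9.52 in L1 to L5 (log2). A single animal, L3, stood far below the other 9, which covered 8.96 to 11.45, while H and L otherwise overlapped. L3 minus the median of the other 9 animals was -5.38, which corresponds to a 41.8-fold lower signal. Its value of 4.42 was above the lowest value of the arrays, but near the array medians of 3.78 to 3.85. How much of it was background was not tested, and the fold depends on this. Without L3 the standard deviation over animals was 0.87, against 1.97 over all 10, and the remaining range still spanned 5.62-fold.

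*CYP3A29*, which has been studied as a drug-oxidising enzyme of pig liver, measured 13.68, 13.32, 14.29, 14.45 and 14.34 in H1 to H5, against 14.29, 14.68, 12.97, 14.12 and 13.29 in L1 to L5 (log2). L3 was again the lowest animal, but the next animal, L5, was only 0.31 log2 units above it. The whole range of *CYP3A29* was 3.28-fold.

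The _at set of *CYP3A39* measured 14.71, 14.88, 14.82, 13.40 and 14.48 in H1 to H5, against 14.51, 14.85, 13.46, 14.19 and 14.22 in L1 to L5 (log2). Its 2 lowest animals were H4 and L3, 1 from each group and only 0.06 log2 units apart. The _s_at set measured 14.76, 14.64, 14.72, 13.84 and 14.49 in H1 to H5, against 14.47, 14.83, 13.76, 14.38 and 14.41 in L1 to L5 (log2), with L3 and H4 again lowest. The 2 sets, which are built on 1 target, ran alike over the 10 animals, with a Pearson r of 0.98 and a Spearman rho of 0.89.

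*CYP3A46* was the steadiest member, with 14.44, 13.95, 13.83, 14.43 and 14.35 in H1 to H5, against 14.36, 14.28, 14.26, 14.18 and 14.48 in L1 to L5 (log2). The 2 lowest animals were H3 and H2, and L3 minus the median of the other 9 was -0.09. The full range was 0.65 log2 units, or 1.57-fold, against 130-fold for *CYP3A22*. By mean signal, only 83 of 23935 porcine probe sets were brighter than *CYP3A46*, against 2412 for *CYP3A22*. Whether the array registers changes of such bright probe sets in full, in L3 or in other animals, was not tested.

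**Figure D1:**
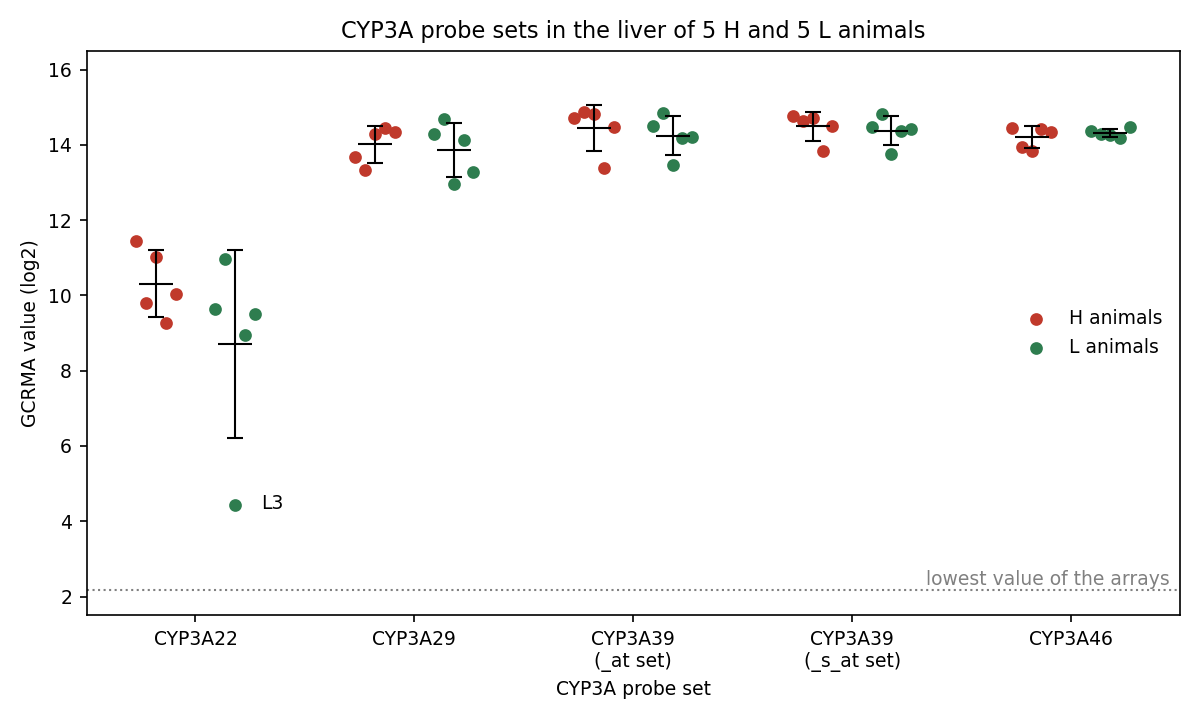
Log2 GCRMA value of each CYP3A probe set in the 5 H animals (left of each pair, red) and the 5 L animals (right, green), with the group mean and SD in black and the lowest value of the arrays as a dotted line. L3 lies at 4.42 for *CYP3A22*, far below the other 9 animals at 8.96 to 11.45, while for the other 4 probe sets all animals lie between 12.97 and 14.88.

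H and L were then compared to ask whether expression of the family differed with the fatty acid composition of the muscle. No CYP3A probe set differed between the groups beyond the spread between animals. All 5 passed the filter of a mean of at least 4, and 0 of 5 were called by limma with Benjamini-Hochberg adjustment at 0.05. Over all 11755 tested probe sets 0 (0%) were called, and 363 (3.09%) had an unadjusted p under 0.05, of which 155 were higher and 208 lower in H. None of the 5 had an unadjusted p under 0.05. The H and L values overlapped for all 5, whereas they did not overlap for 48 (0.408%) of the tested probe sets.

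The mean of *CYP3A22* was 10.31 ± 0.90 among H and 8.70 ± 2.50 among L animals (log2 ± SD, n = 5 each). The difference of 1.61, or 3.06-fold, had a standard error of 1.06 and a 95% confidence interval from -0.73 to 3.96 (limma adjusted p = 0.991; exact permutation test, two-sided, p = 0.175). Without L3, the means were 10.31 ± 0.90 in H (SD, n = 5) and 9.77 ± 0.85 in L (SD, n = 4). The difference was then 0.54 with an interval from -0.63 to 1.72 (limma adjusted p = 0.999), so most of it came with L3.

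The other 4 differences were small. *CYP3A29* averaged 14.01 ± 0.49 in H and 13.87 ± 0.72 in L, a difference of 0.14 with an interval from -0.63 to 0.92. For *CYP3A39* the _at set averaged 14.46 ± 0.61 in H and 14.25 ± 0.51 in L, with a difference of 0.21 and an interval from -0.50 to 0.93. The _s_at set of the gene averaged 14.49 ± 0.38 in H and 14.37 ± 0.38 in L, and differed by 0.12 with an interval from -0.37 to 0.61. *CYP3A46* averaged 14.20 ± 0.29 in H and 14.31 ± 0.12 in L, a difference of -0.11 with an interval from -0.41 to 0.19 (all log2 ± SD, n = 5 each; limma adjusted p = 0.991 for each). The interval was narrowest for *CYP3A46*, and for none of the 4 did it exclude 0. Without L3 the sign turned for *CYP3A29*, to -0.08, and for the _s_at set of *CYP3A39*, to -0.03, and the _at set of *CYP3A39* was left with 0.01. Without H3 the difference of *CYP3A46* was -0.02.

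**Figure D2:**
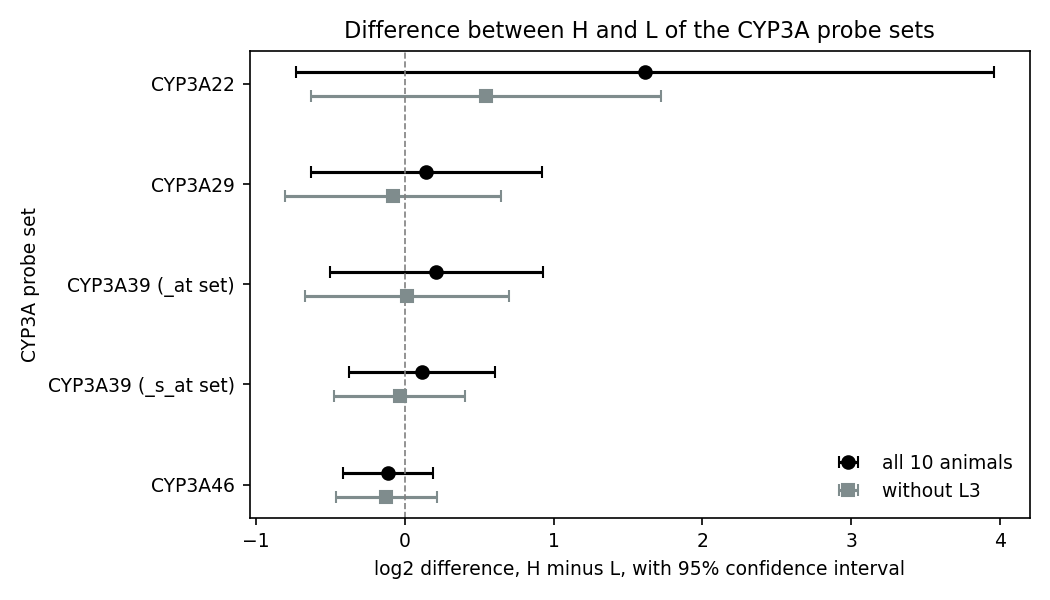
Log2 difference H minus L of the 5 CYP3A probe sets, with its 95% confidence interval from limma, over all 10 animals (circles) and without L3 (squares). All 10 intervals include 0, and the difference of *CYP3A22* is 1.61 with L3 and 0.54 without it.

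To ask whether H and L differed in 1 member relative to another, the value of 1 probe set minus that of another was taken within each animal. Its means in H and L were compared, for all 10 pairs. This cannot tell whether members moved together from animal to animal. The pairs with *CYP3A22* also hold the value for which the family was chosen. None of the 10 differed (exact permutation test, two-sided; smallest p = 0.111, smallest adjusted p over the pairs = 0.476; the design allows a p as low as 0.00794). *CYP3A22* minus *CYP3A46* had the widest difference, with -3.89 ± 0.98 among H and -5.61 ± 2.47 among L animals (log2 ± SD, n = 5 each), or 1.72 higher in H (exact permutation test, p = 0.143). That difference was 0.67 without L3. Among pairs without *CYP3A22*, the H minus L differences lay between -0.07 and 0.32.

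In L3 the loss of *CYP3A22* was far larger than that of any other member. L3 was below the median of the 10 animals for all 5 probe sets. Its deviation was -5.30 for *CYP3A22*, -1.23 for *CYP3A29*, -1.03 and -0.72 for the _at and _s_at sets of *CYP3A39*, and -0.06 for *CYP3A46*. *CYP3A22* minus *CYP3A46* was -9.83 in L3, whereas the next lowest animal, L4, had -5.22. *CYP3A22* minus the _at set of *CYP3A39* was -9.04 in L3, with L4 next at -5.24. So *CYP3A22* was short in L3 also relative to members that were themselves low there.

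L4 was the only other animal with all 5 probe sets below the median, with a lowest deviation of -0.77. H4 differed from L3 in which member was low. It had the lowest _at value of *CYP3A39*, with a deviation of -1.10, but its *CYP3A29*, at 14.45, was the second highest of all animals. *CYP3A29* minus the _at set of *CYP3A39* was 1.05 in H4, and below 0 in the other 9 animals.

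Over the 10 animals, *CYP3A22* followed the _s_at set of *CYP3A39* most closely, with a Pearson r of 0.82 and a Spearman rho of 0.94, and these were 0.75 and 0.92 without L3. For the _at set r was 0.75, and 0.67 without L3. With *CYP3A29* r was 0.57, but 0.11 without L3, so that relation rested on 1 animal. With *CYP3A46*, *CYP3A22* had an r of -0.07, and *CYP3A46* ran somewhat opposite to both *CYP3A39* sets (r = -0.42 for the _at and -0.30 for the _s_at set). These coefficients describe 10 animals whose arrays were normalized together and some of which are related.

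**Figure D3:**
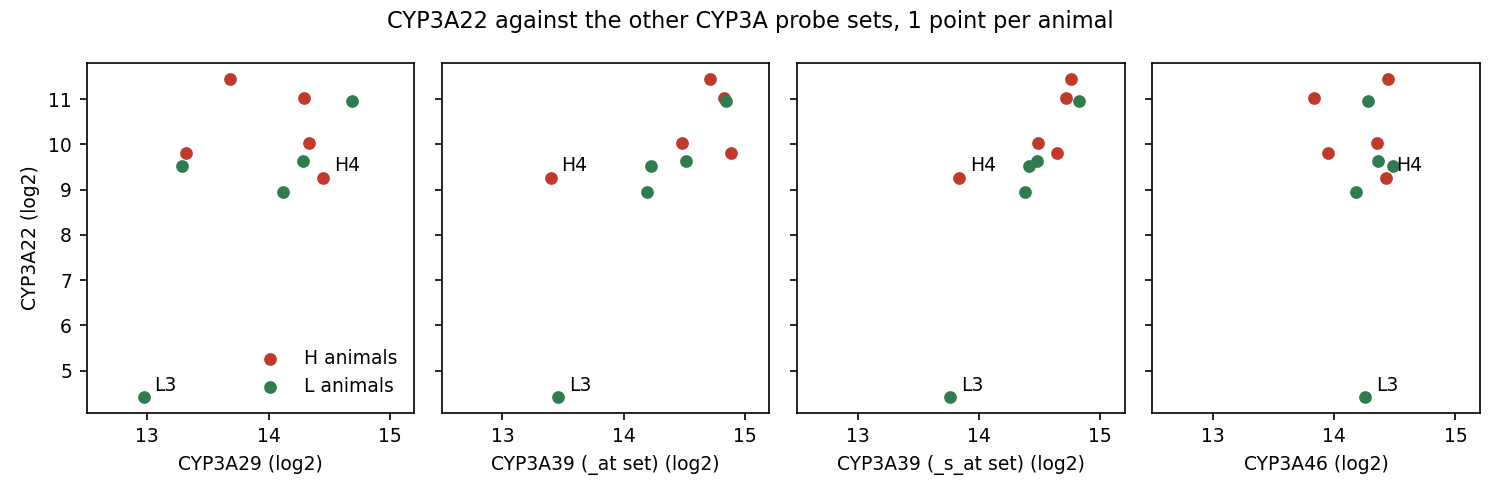
*CYP3A22* (vertical axis, log2) against each of the other CYP3A probe sets (horizontal axis, log2), 1 point per animal, H in red and L in green. L3 lies at the bottom of each panel, and among the other 9 animals *CYP3A22* rises with the 2 *CYP3A39* sets (r = 0.67 and 0.75) and not with *CYP3A29* (r = 0.11).

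The size of the *CYP3A22* gap was set against all tested probe sets, as a description. L3 was 4.54 log2 units below the second lowest animal. A gap of at least 1 between the lowest and the second lowest animal was found in 117 of 11755 probe sets (0.995%), a gap of at least 2 in 15, and a gap of at least 4 in 6, and the median gap was 0.11. The *CYP3A22* gap was the 4th largest. The 3 larger ones were 7.29 for a probe set without a gene symbol in H5, and 6.94 and 6.44 for the 2 probe sets of *HSD17B2*, which inactivates oestradiol and testosterone, in H4. *CYP2A19*, a pig P450 of another family, followed with 4.25, also in H4. The gaps of the other CYP3A probe sets, 0.06 to 0.31, were common, and 1834 tested probe sets had a gap as large as that of *CYP3A29*.

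**Figure D4:**
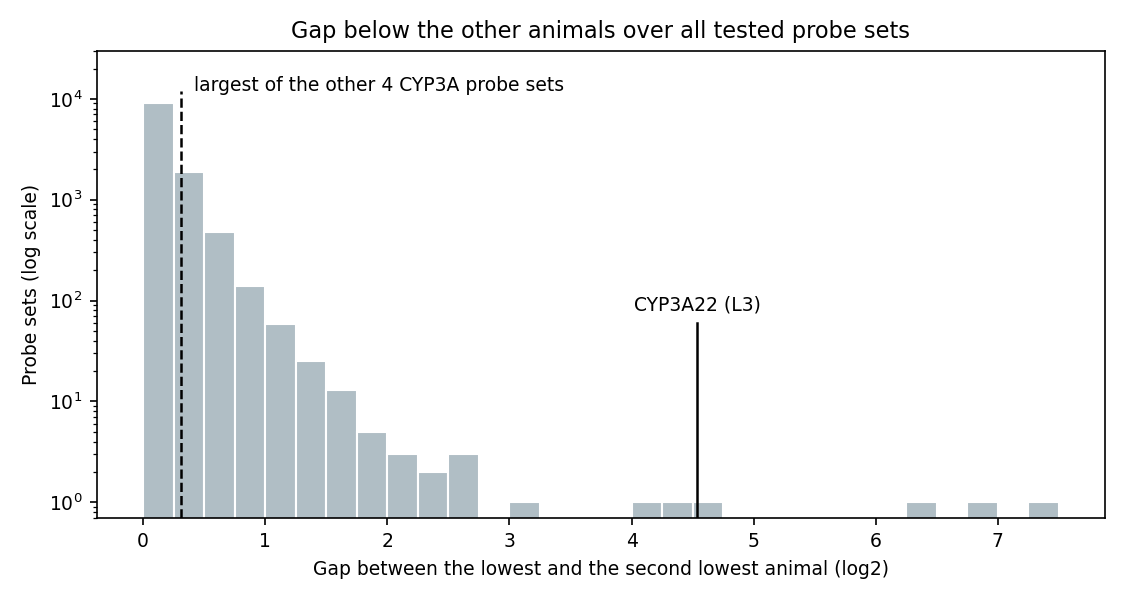
Number of tested probe sets (vertical axis, log scale) by the gap between the lowest and the second lowest of the 10 animals (horizontal axis, log2). *CYP3A22*, with L3 lowest by 4.54, lies among the 6 probe sets with a gap of at least 4, whereas the largest gap of the other 4 CYP3A probe sets is 0.31.

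Measured as the distance from the median of the other 9 animals, *CYP3A22* was the lowest of all 11755 probe sets in L3. In that animal *CYP3A29* ranked 83rd, the _at set of *CYP3A39* 170th and the _s_at set 446th from the lowest, but *CYP3A46* 3471st. L3 had 192 probe sets (1.63%) at least 1 log2 unit below the others. The count was 206 in H4 and between 70 and 146 in the other 8 animals. Thus L3 was not alone in having low values, and the *CYP3A22* value was its most extreme one.

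Other properties of the L3 array are given here as a description. Its median correlation with the other arrays was 0.973, higher than only those of H4, at 0.969, and L4. The difference between its 3' and 5' control probe sets of *GAPDH*, which grows as RNA degrades, was 1.72. This lay within the 1.70 to 2.39 of H and the 1.68 to 2.70 of L. The hepatocyte markers of L3 had a mean level of 14.64, inside the 14.60 to 14.89 of the other 9 animals, and the markers of cholangiocytes, macrophages, endothelial cells, stellate cells and erythroid cells were also inside the range of the others. The mean level of the 2 small intestine epithelium markers that passed the filter was highest in L3, but only just, at 10.81 against 9.62 to 10.78 in the other 9. *FABP2*, a defining marker, had no value of 4. The part of these properties and markers in the low *CYP3A22* of L3 was not tested.

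Genes next to the CYP3A genes in the name table, chosen after their values were seen, were not low in L3 in the same way. *ZKSCAN5*, a zinc finger gene, was 9.68 in L3, with L4 lower at 9.38 and the other animals at 10.15 to 11.07. *ZNF655* was 7.59 in L3 within 7.28 to 8.01 in the others, and the brighter set of *ZNF789* was 8.12 in L3, above the 7.17 to 7.98 of the others.

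The genes with the most similar pattern were sought among 6009 probe sets of 4726 other genes. For *CYP3A22* these were *QDPR*, which recycles the cofactor tetrahydrobiopterin (r = 0.96), *OTC*, an enzyme of the urea cycle (r = 0.95), and *LOC100518620* (r = 0.95). All 3 were lowest in L3. *QDPR* was 10.55 in L3 and 11.54 to 12.32 in the other 9 animals. *OTC* was 9.28 in L3 and 10.55 to 11.21 in the others. Among the other 9 animals r with *CYP3A22* was 0.80 for *QDPR* and 0.72 for *OTC*, so L3 made up part of the likeness. The most opposed gene was *GOLGA1*, a golgin of the Golgi apparatus (r = -0.97, and -0.78 without L3), with 5.65 in L3 and 5.19 to 5.31 in the others. Without L3 the 3 most similar genes were *ARG2* (r = 0.95), *AVPI1* (r = 0.93) and *ARG1* (r = 0.93), of which *ARG1* and *ARG2* encode arginases.

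*CYP3A39* had other companions. Its _at set went with *ARL3*, a small GTPase (r = 0.95), *HSD17B10*, a mitochondrial dehydrogenase (r = 0.93), and *KLKB1*, plasma prekallikrein (r = 0.93). Its _s_at set went with *FN3K*, a kinase that removes sugar from glycated proteins (r = 0.96), *KLKB1* (r = 0.96) and *HSD17B10* (r = 0.95). These genes were low in both H4 and L3. *KLKB1* was 11.23 in H4 and 11.29 in L3, and 11.93 to 12.58 in the other animals. Their likeness to the _at set was 0.95 for *ARL3* and 0.89 for *KLKB1* without L3. The most opposed genes were *TSPAN13*, a tetraspanin (r = -0.94, _at set), and *MOSPD2* (r = -0.96, _s_at set).

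*CYP3A29* had weaker companions, *FGGY*, a carbohydrate kinase (r = 0.84), *NCOR1*, a corepressor of nuclear receptors (r = 0.82), and *GARNL3* (r = 0.81), and ran opposite to *FABP5*, a fatty acid binding protein (r = -0.89). *FABP5* was 6.88, 6.79, 6.24, 5.97 and 5.92 in H1 to H5, against 6.42, 6.31, 7.34, 6.45 and 7.57 in L1 to L5 (log2). It was thus highest in L5 and L3, the 2 animals with the lowest *CYP3A29*. *CYP3A46* went with *LRIG1*, which dampens signalling of growth factor receptors (r = 0.89), *RETSAT*, retinol saturase (r = 0.87), and *MEMO1* (r = 0.85), and ran opposite to *DDR1*, a collagen receptor (r = -0.93). *DDR1* was dim and nearly flat, with all animals at 4.32 to 4.58. *RETSAT* was 12.90 in H3 and 13.09 in H2, the 2 animals with the lowest *CYP3A46*, and 13.58 or more in the other 8. No p is given for these coefficients, which were picked as the highest and lowest among many genes over 10 animals.

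The other parts of the P450 system were described through 6 lists of genes. None of the listed probe sets that were tested was called between H and L. In other cytochromes P450, 9 of 18 tested probe sets were above 0 and 9 below, with a median difference of -0.02, equal to the -0.02 of all tested probe sets. Their median SD over animals was 0.78, against 0.24 for all tested probe sets and 0.54 for the CYP3A sets, and 2 of the 18 had a wider spread than *CYP3A22*.

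The first of these was *CYP7A1*, which starts the making of bile acids from cholesterol, with 9.51, 5.61, 7.95, 2.19 and 5.26 in H1 to H5, against 2.58, 8.33, 2.60, 2.19 and 7.57 in L1 to L5 (log2). L3 was among its 4 animals near the lowest value of the arrays. The other was *CYP2C36*, with 4.13, 4.72, 6.28, 11.17 and 2.53 in H1 to H5, against 5.31, 3.65, 2.53, 5.28 and 4.77 in L1 to L5 (log2). Its single high animal was H4. *CYP2A19* measured 12.76, 13.22, 14.22, 7.98 and 12.76 in H1 to H5, against 14.25, 13.29, 12.70, 12.23 and 14.12 in L1 to L5 (log2), so that H4 was far below the others. *CYP2A19* differed by -1.13 with all animals and by -0.08 without H4 (limma adjusted p = 0.991 with all animals). A single animal thus also set the group difference of this P450, and it was not L3, whose *CYP2A19* lay inside the range of the other animals.

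L3 was the lowest animal for 7 of 18 probe sets of other cytochromes P450 (38.9%), against 10.8% of all tested probe sets. H4 was lowest for 5 of the 18 (27.8%), against 12.4% of all tested probe sets. Some of the 7 were near the lowest value of the arrays in L3, at 2.52 to 2.72. L3 was also lowest for 3 of the 5 CYP3A sets. These include *CYP3A22*, for whose low value in L3 the family was chosen, so that count is a description only. *CYP39A1*, an oxysterol hydroxylase, was 7.26 in L3 and 7.78 to 8.75 in the other animals. It was chosen after its values were seen, as were *CYP2C42* and *CYP51*, which ran the other way. *CYP2C42* was highest in L3, at 9.77, and *CYP51*, a sterol demethylase of cholesterol synthesis, was also highest there, at 12.40. The low values of L3 were therefore not shared by all P450s.

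**Figure D5:**
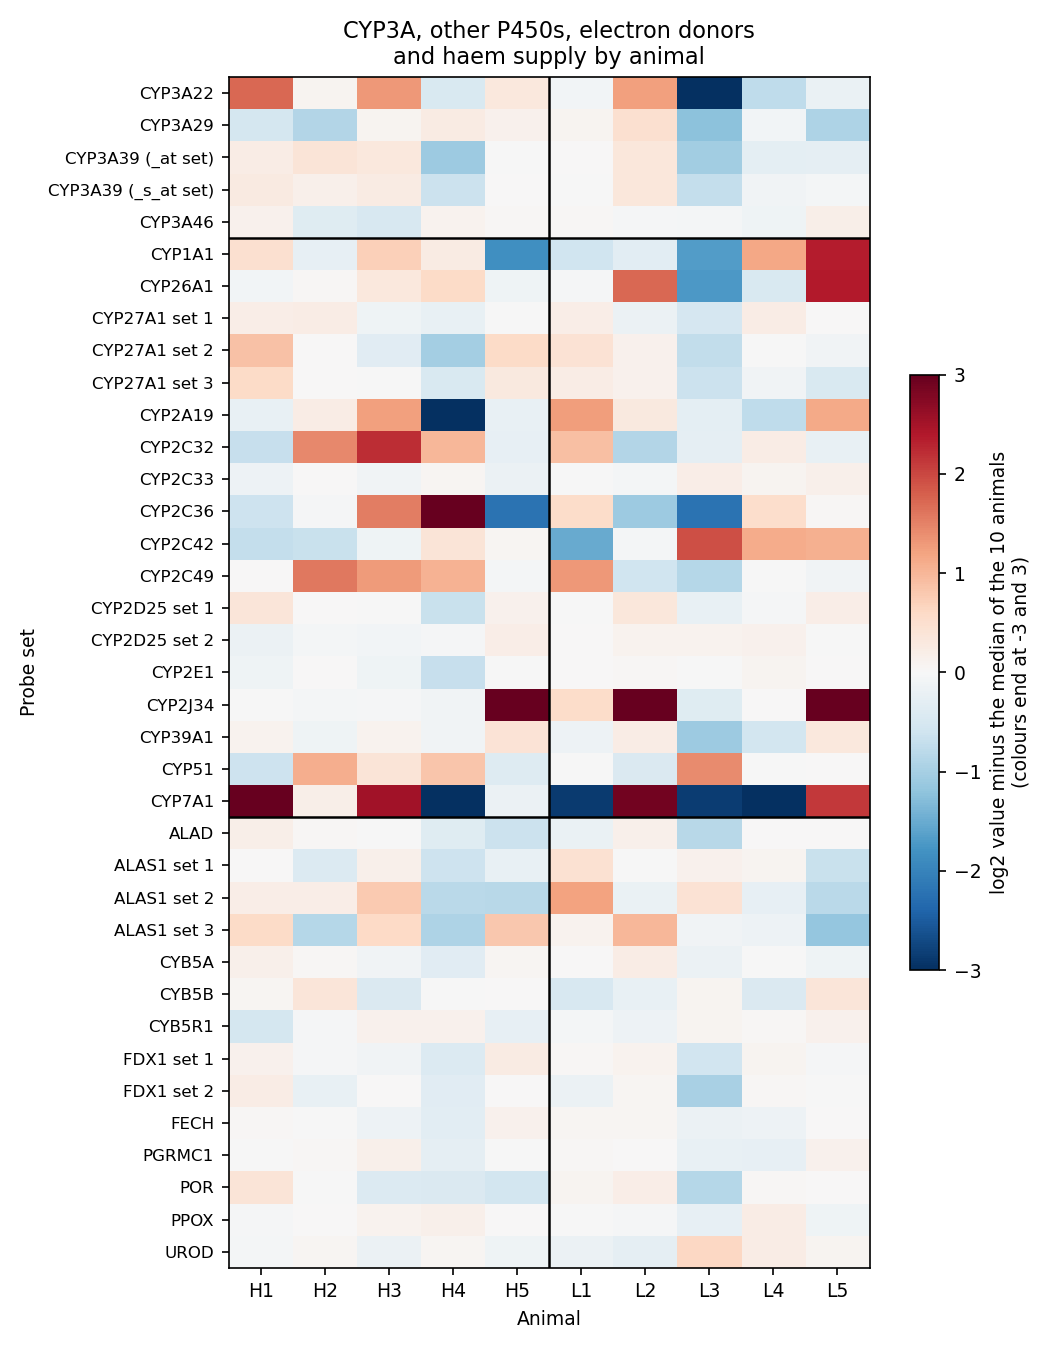
Log2 value minus the median of the 10 animals for the 5 CYP3A probe sets (top), 18 of other cytochromes P450 (middle) and 14 of electron donors and haem supply (bottom), with H animals left and L animals right of the line. Blue is below and red above the median, colours end at -3 and 3, and *CYP3A22* in L3 (-5.30) and *CYP2A19* in H4 are the deepest blue cells outside *CYP7A1*.

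Among electron donors and haem supply, 7 of 14 tested probe sets were above 0 and 7 below, and L3 was lowest for 5 of them. *POR* measured 11.08, 10.68, 10.28, 10.27 and 10.15 in H1 to H5, against 10.78, 10.90, 9.85, 10.74 and 10.72 in L1 to L5 (log2), with L3 lowest and the H minus L difference at -0.11, which became -0.29 without L3 and -0.02 without H5. The dimmer of 2 sets of *FDX1*, adrenodoxin, an electron carrier of mitochondrial P450s, was 7.55 in L3 and 8.21 to 8.76 in the other animals. It had an r of 0.92 with *CYP3A22*. The brighter set of *FDX1* had an r of 0.75, and was 11.18 in L3 with 11.36 the next value. How far these coefficients rested on L3 was not tested. *ALAS1*, the first enzyme of haem synthesis, had 3 tested sets, which differed by -0.22, -0.18 and 0.10, so its sets did not share a direction. In L3 the brightest of them, at 12.99, was among the highest of the 10 animals.

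The receptors and factors that act on CYP3A genes had 29 tested probe sets, 14 above 0 and 15 below. Of the 29, 3 had an unadjusted p under 0.05 (limma), a larger share than the 3.09% of all tested probe sets. The list was chosen with earlier results known, so this is a description. *NR1I2*, the pregnane X receptor, measured 5.92, 5.91, 5.89, 5.69 and 6.02 in H1 to H5, against 6.25, 6.19, 6.10, 6.71 and 6.06 in L1 to L5 (log2). All H values were below all L values, as in 0.408% of the tested probe sets. The difference was -0.38 with a standard error of 0.13, and limma's adjusted p was 0.991, so it was not called over the whole array. *NR1I2* was not low in L3, and its r with *CYP3A22* was -0.17. *NCOA1* and *NCOA2*, coactivators of nuclear receptors, differed by -0.38 and 0.50 in 1 probe set each (limma adjusted p = 0.991 for both). The other *NCOA1* sets differed by -0.24 to 0.05 and the other *NCOA2* set by 0.30. *HNF4A*, a liver transcription factor, differed by 0.33 in the set with the larger change, but by 0.099 without L5, and *PPARGC1A*, a coactivator of fasting metabolism, by 0.03, with an r of -0.89 to *CYP3A46*. *NR1I3*, the constitutive androstane receptor, is not among the tested probe sets.

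Conjugating enzymes and drug transporters had 15 of 28 tested probe sets above 0 and 13 below, with L3 lowest for 7. *SULT1A3*, a sulphotransferase, measured 10.50, 10.80, 10.63, 5.93 and 9.97 in H1 to H5, against 10.63, 10.63, 10.12, 10.56 and 11.14 in L1 to L5 (log2), again with H4 far below the others. The _s_at set of *GSTA1*, a glutathione transferase, differed by -0.68, *CES1*, a carboxylesterase, by -0.40 and *GSTA4* by 0.21, and none was called. Without H5 the difference was -0.35 for *GSTA1* and -0.14 for *CES1*, and *GSTA4* changed sign without H1, H3 or L5.

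In steroid hormone turnover, 2 of 7 tested probe sets were above 0 and 5 below, and H4 was the lowest animal for 5 of the 7, while L3 was lowest for 1. The first set of *HSD17B2* measured 10.68, 11.38, 12.15, 3.73 and 11.04 in H1 to H5, against 11.72, 10.99, 10.68, 11.20 and 11.91 in L1 to L5 (log2). The second set measured 9.28, 9.31, 11.12, 2.69 and 9.85 in H1 to H5, against 9.53, 10.04, 9.13, 9.69 and 10.50 in L1 to L5 (log2). Both sets showed the same single-animal loss, in an animal in which *CYP3A22* was 9.27 and hence within the range of the others. *HSD3B1*, which converts steroid precursors, was 6.72 in H4 and at least 8.37 in the other 9. The 2 lowest *CYP3A39* values thus came from 2 animals with different low genes, *CYP3A22* in L3 and *HSD17B2* in H4.

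Acute-phase proteins, which rise in liver during inflammation, had 8 of 24 tested probe sets above 0 and 16 below, with a median of -0.07, and L3 was the lowest animal for none of them. *CRP*, C-reactive protein, was highest in L3, at 13.08, and lowest in H4, at 9.08. *HAMP*, hepcidin, measured 9.70, 10.98, 6.01, 8.38 and 3.49 in H1 to H5, against 10.08, 8.48, 9.61, 8.24 and 9.01 in L1 to L5 (log2). The dimmer set of *ITIH3* differed by 0.50, or by 0.27 without H3, and the brighter set by 0.05. The r with *CYP3A22* was -0.22 for both *CRP* and *HAMP*. Over the list it ran from -0.86, for *ITIH4*, to 0.62, for the dimmer set of *ORM1*. Chosen after their values were seen, *ITIH4*, the brighter set of *FGG* (r = -0.77), *FGB* (r = -0.63) and *HP* (r = -0.55) were also highest in L3. *ITIH4* was 14.01 in L3 and 12.96 to 13.71 in the other animals. Others, chosen in the same way, were not. The dimmer set of *FGG* was highest in L2 (r = -0.23), and *LBP* and the dimmer set of *ORM1* were second lowest in L3, at 10.86 and 9.05. Over the list, the median deviation of L3 from the median of the 10 animals was 0.07.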

How the data were processed

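Liver RNA of 5 H and 5 L animals was measured on 1 Affymetrix array each. Per the methods, GCOS read the arrays and GCRMA (version not given in the sources used here) corrected background and normalized. What the authors deposited are the resulting log2 values of 24123 probe sets. Control probe sets (124 AFFX and 64 reporter sets) were left out. Gene symbols came from the platform annotation, and a RefSeq gene table of another assembly served only for names and gene order. Values were used as deposited. A linear model for group (limma 3.58.1, R 4.3.3) with moderated two-sided tests was fitted to the 11755 probe sets whose mean reached 4, with Benjamini-Hochberg adjustment at 0.05, and differences are H minus L. The scripts were tested on simulated data. Single values were compared by exact permutation over all divisions of the animals (Python 3.11.15, scipy 1.17.1). Kinship was not modelled, since the sibs are not identified, so the tests treated related animals as independent. The CYP3A probe sets, the gene lists and the marker lists were chosen with earlier results of these data known. Named were all CYP3A probe sets, the 3 genes most like and the 1 most opposed to each, of each list the members with the largest difference (up to 3) or SD (up to 2), and *POR* and *NR1I2*; others are said to be chosen after their values were seen. Alternatives covered the filter, normalization, weights, prior, *GAPDH* covariate, replicate block and each animal left out. Arrays give no depth, and their number limits the precision.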

Additional observations from a re-analysis of the deposited data

Results flagged for a closer look

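In each group of 5 animals, the distance of the extreme animal from its neighbour was taken as a share of the whole range, and shares above Dixon's 95% limit, 0.71, were picked out. Of 64 groups examined, 12 held such an animal. The limit is meant to pick out about 5% of groups by chance, but these probe sets were chosen partly for a wide spread or a large difference, so the count is not read against that share and the values are a description. Among the CYP3A sets, H4 lay apart at 13.40 for the _at set of *CYP3A39*, with 14.48 the next value in H. The low *CYP3A22* of L3 itself stayed just under the limit, with a ratio of 0.694. Within each animal, *CYP3A22* minus *CYP3A39* was above the limit in L3, at -9.04 for the _at set and -9.34 for the _s_at set, with -5.24 and -5.42 in L4, the next animal of the group. Both contrasts hold the *CYP3A22* value for which the family was chosen, and are no support for its loss.

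In L3, *POR* lay apart at 9.85 (next in L 10.72) and the dimmer set of *FDX1* at 7.55 (next in L 8.35). In H4, *CYP2A19* lay apart at 7.98, *SULT1A3* at 5.93, the 2 sets of *HSD17B2* at 3.73 and 2.69, and *HSD3B1* at 6.72, all as the lowest of H, whereas one set of *HNF4A* was the highest there at 9.76. *NR1I2* was highest in L4 at 6.71. Apart from this limit, no test of single animals was made.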

How the results depend on the processing

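No CYP3A probe set and no list member was called under any of the alternatives run, and the 10 pairs of CYP3A sets also gave 0 calls, over the filter, normalization, array weights, prior, *GAPDH* covariate and single animals left out. Over all probe sets 0 were called as well, with 236 (without L4) to 685 (without L2) at an unadjusted p under 0.05, 259 with a mean of at least 6 and 461 without a filter. Of 779 values recomputed, 749 kept their direction and call. With the animal number as a replicate block 0 were called and 393 had an unadjusted p under 0.05. The labels do not say that numbers pair animals, and deviations of same-numbered animals correlated between -0.22 and 0.39, with 1 of 5 numbers matching best, so the pairing was not used.

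The genes most like each probe set were unstable. Of the 15, 2 were found again with Spearman's coefficient, and between 5 (without L3) and 12 (without H5) when an animal was left out. Leaving out single animals moved H minus L of *CYP3A22* between 0.54 (without L3) and 2.18 (without L2), and turned *CYP3A29* (-0.080 without L3, -0.00 without L5, highest 0.35) and the _s_at set of *CYP3A39* (-0.034 without L3, highest 0.28). It also turned *FDX1* (-0.041 to 0.22), 2 sets of *ALAS1* (-0.40 to 0.10 and -0.17 to 0.37), *PPARGC1A* (-0.14 to 0.20), *GSTA4* (-0.18 to 0.66), *HSD17B2* (-2.09 to 0.012 and -1.997 to 0.11, positive without H4) and *HSD3B1* (-0.46 to 0.15, positive without H4), none of them called. Without changing sign, the _at set of *CYP3A39* moved between 0.014 (without L3) and 0.48 (without H4), *CYP3A46* between -0.17 and -0.02 (without H3), *GSTA1* between -0.96 and -0.35 (without H5), *CES1* between -0.57 and -0.14 (without H5), and *HNF4A* between 0.099 (without L5) and 0.49. The correlations and similar genes without L3 were added after the data were seen.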
